A study of Sus scrofa with 4 samples.

Results

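A set of 7 genes that steer leukocyte traffic was followed in pig thymus. It held the inflammatory chemokines CCL2, CCL4, CCL5 and CCL8, the chemokine receptor CXCR6, and the atypical chemokine receptors ACKR1 (formerly DARC) and ACKR4 (formerly CCRL1). They were chosen by name, and every array probe whose RefSeq accession belongs to one of these 7 genes was taken, which gave 9 of the 43603 probes on the array and 7 of the 3020 genes that a probe could be named for. CCL2 and CCL5 had 2 probes each and the other genes 1. All 9 probes were well above background on all 4 arrays, so that none was lost to the filter on dim probes. The study had itself shown these genes in its cytokine charts on the basis of the same samples, and their direction is therefore not independent evidence.

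Thymus RNA was measured on 4 one-colour Agilent arrays, 2 for IL2RG KO pigs and 2 for WT pigs, all Minnesota miniature swine. The KO pigs carried the genotype IL2RG+/-, in which TALENs, designed nucleases that cut DNA at a chosen site, had disrupted 1 allele of the gene for the common gamma chain of the interleukin receptors. They came from edited donor cells by somatic cell nuclear transfer, and most KO animals had no thymus, so that the arrays describe the rudimentary thymus of those that had one. The WT pigs carried no edited allele. The sources used here do not tie an age to any of the 4 arrays. The labels call the samples replicates and do not say for each that it came from a separate animal. The paper states that expression was studied in the 2 KO pigs that had a thymus, and compares these 2 pigs. It makes no such statement for the WT samples. The p-values measure the spread between these samples, which may in part be technical. Each slide held 1 array of either genotype: slide 1 carried KO replicate 1 with WT replicate 2, and slide 2 the other two.

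Chemokines are small secreted proteins that draw leukocytes along a gradient by way of G protein-coupled receptors. CCL2 and CCL8 attract monocytes, through CCR2 among other receptors, and CCL4 and CCL5 attract monocytes, activated T cells and NK cells. CXCR6, the receptor of CXCL16, is carried by activated and tissue-resident T cells and by NK cells. Atypical receptors bind chemokines without G protein signalling. ACKR1 on venular endothelium and red cells takes up many inflammatory chemokines, and ACKR4 on stromal cells, thymic epithelium among them, clears the homeostatic chemokines CCL19, CCL21 and CCL25.

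All values below are normalized log2 signals, that is, the log2 of the spot brightness less the 75th percentile of the array, and a value of 0 is the brightness of that percentile. A difference is KO minus WT on this scale, with the standard error (SE) of limma. To be called higher or lower, a probe had to differ by at least 2-fold with an adjusted p under 0.05 (Benjamini-Hochberg). Levels of different probes cannot be compared with one another on arrays, since probes differ in how strongly they bind. In bulk tissue, fewer cells of a type and less RNA per cell cannot be told apart.

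The share of probes well above background was 74.5% and 73.5% on the KO arrays and 67.9% and 68.1% on the WT arrays, no spot was saturated, and 31959 probes were tested. The brightest IL2RG probe was lower in KO by a log2 difference of -3.41 (SE 0.27, limma adjusted p = 0.00256), and its other probe was lower as well. The median difference over all tested probes was -0.06, and it was -0.32 when arrays were scaled to their median. With that scaling the 7 genes still differed by between 2.01 and 3.31.

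All 7 genes were higher in KO thymus. Of the 9 probes, 9 passed the test as higher, where 21.0% of all tested probes did so and 13.0% passed as lower. By gene, 7 of 7 passed as higher, where 25.1% of the 2700 tested named genes did and 12.6% passed as lower. Each of the 7 also passed as higher at 4-fold with the same limit on adjusted p, as did 12.7% of the named genes and 11.2% of the probes. Both KO arrays lay above both WT arrays for each of the 9 probes, which held for 37.7% of all tested probes. The median difference of the 7 genes was 2.75, against -0.00 over the named genes. An exact permutation test of 1 gene with 2 arrays against 2 cannot give a two-sided p below 0.333, so that the limma p-values rest on a spread pooled over all probes.

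**Figure D1:**
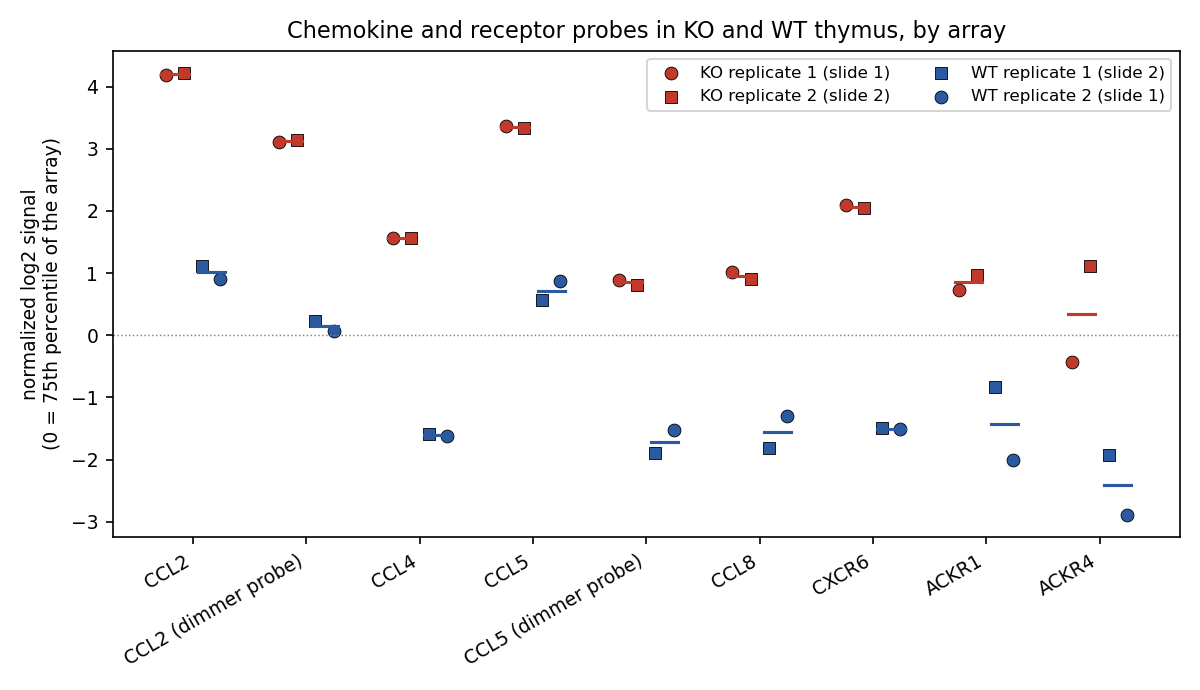
Normalized log2 signal (vertical axis, 0 is the 75th percentile of the array) of the 9 probes of the 7 genes, with a point for each array, circles for slide 1, squares for slide 2, and a bar for the mean of the 2 arrays of a genotype. The KO points (red) lie above the WT points (blue) for every probe, close together for CCL2, CCL4 and CXCR6 and widest apart for ACKR1 and ACKR4.

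The monocyte chemokine CCL2 had a scanner signal of 13803 and 12952 on the KO arrays and of 1336 and 1304 on the WT arrays. After normalization this was 4.18 and 4.22 in KO, against 1.11 and 0.91 in WT. The groups were separated by 3.07 between the lower KO array and the higher WT array, and the arrays of a genotype by no more than 0.20. The difference was 3.19 (SE 0.16), or 9.14-fold (limma adjusted p = 0.00205), and it was 3.27 on slide 1 and 3.11 on slide 2. The second probe of CCL2 read 3.11 and 3.14 in KO against 0.23 and 0.07 in WT. It gave a difference of 2.97 (SE 0.16, limma adjusted p = 0.00205), a little below that of the first probe.

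CCL8, the other monocyte chemokine, had normalized signals of 1.01 and 0.90 in KO and of -1.81 and -1.30 in WT. The WT arrays lay 0.51 apart, the widest gap among the 4 chemokines, and still 2.20 below the lower KO array. The difference was 2.51 (SE 0.23), or 5.70-fold (limma adjusted p = 0.00324). Leaving out 1 array at a time moved it between 2.25 and 2.77, with the call kept in each case.

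CCL4, which attracts activated T cells and monocytes, was the most even of the 4 chemokines between arrays. Its normalized signals were 1.56 and 1.57 in KO, against -1.59 and -1.62 in WT, with scanner readings of 2244 and 2070 against 206 and 226. The difference of 3.17 (SE 0.15), or 9.0-fold (limma adjusted p = 0.00205), was the same on both slides to 2 decimals. The KO arrays differed by 0.02, where the median gap between the KO arrays over all tested probes was 0.16.

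CCL5, a ligand of CCR1 and CCR3, had signals of 3.37 and 3.33 in KO and of 0.56 and 0.87 in WT at its brighter probe. Its dimmer probe read 0.89 and 0.81 against -1.89 and -1.53. WT replicate 2 was the higher WT array at both probes. The differences were 2.64 (SE 0.18, 6.22-fold) and 2.56 (SE 0.19, 5.90-fold), with limma adjusted p = 0.00224 and 0.00243, so that the probes of CCL5 differed by less than their SE.

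CXCR6 had the largest difference of the 7 genes and stood at position 567 when the 31959 probes were ranked by their rise in KO. Its normalized signals were 2.09 and 2.05 in KO, against -1.49 and -1.51 in WT, so that the arrays of a genotype were no more than 0.04 apart and the genotypes 3.54 apart at the nearest. The difference was 3.57 (SE 0.15), or 11.9-fold (limma adjusted p = 0.00205). It was 3.60 on slide 1 and 3.54 on slide 2. Its ligand CXCL16, which is also made as a membrane-bound protein, was higher in KO too, with 3.55 and 3.71 against 1.85 and 1.46 in WT. The difference of CXCL16 was 1.97 (SE 0.20, limma adjusted p = 0.00405), and both of its probes were called higher.

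**Figure D2:**
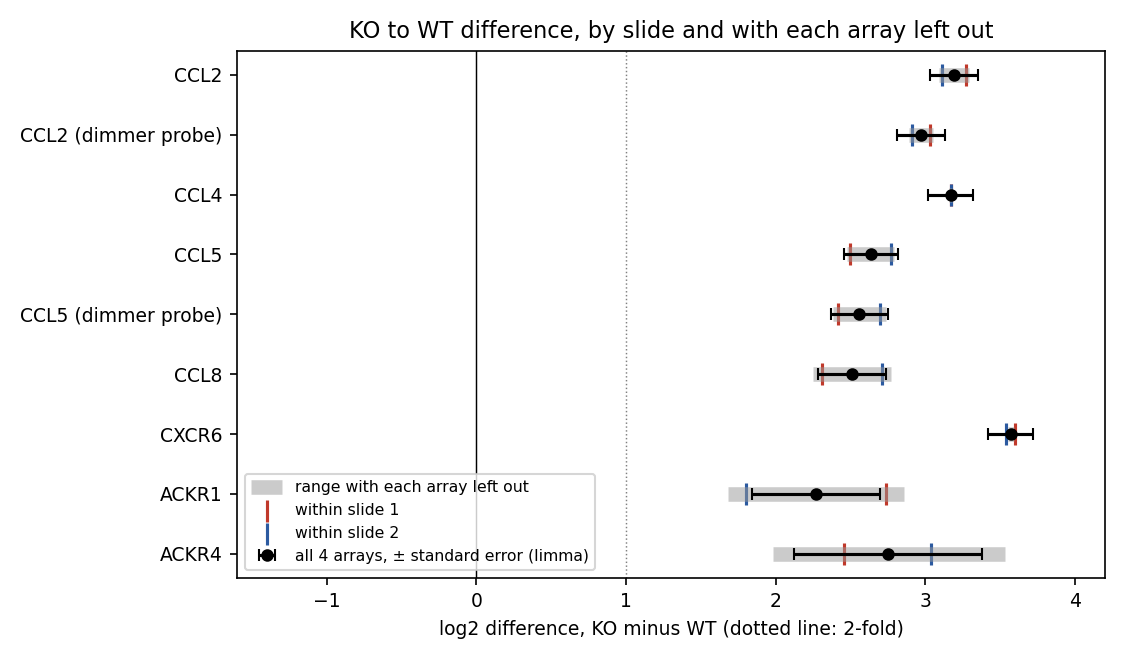
Difference between KO and WT (log2, horizontal axis) for the 9 probes, with the value over all 4 arrays as a point with its SE from limma, the values within slide 1 and slide 2 as red and blue ticks, and the range with each array left out as a grey band. All values lie right of the dotted 2-fold line, and the bands are widest for ACKR1 (1.68 to 2.86) and ACKR4 (1.98 to 3.53).

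ACKR1 and ACKR4 rose with much wider spread than the other 5 genes. ACKR1 read 0.73 and 0.97 in KO, against -0.83 and -2.0 in WT. The lowest reading was that of WT replicate 2, at a scanner signal of 173 against 349 in WT replicate 1, a 2.26-fold gap between the WT arrays that was wider than at 94.0% of the tested probes. The difference was 2.27 (SE 0.43), or 4.83-fold (limma adjusted p = 0.0159), with 2.74 on slide 1 and 1.80 on slide 2. The call was lost without KO replicate 1 (2.39, limma adjusted p = 0.0551) and without KO replicate 2 (2.15, limma adjusted p = 0.071).

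ACKR4 read -0.43 and 1.12 in KO, against -1.93 and -2.89 in WT. In scanner units this was 567 and 1506 in KO against 163 and 93.5 in WT. KO replicate 2 thus lay 2.91-fold above KO replicate 1, a gap wider than at 99.2% of the tested probes, and the lower KO array was still 1.5 above the higher WT array. The difference was 2.75 (SE 0.63), or 6.75-fold (limma adjusted p = 0.0259). Without KO replicate 2 it was 1.98 (limma adjusted p = 0.0635) and without WT replicate 2 it was 2.27 (limma adjusted p = 0.0634), so that neither value passed the threshold. The 4 chemokines and CXCR6 stayed called with each array left out in turn. With slide as a block all 7 genes stayed called, with limma adjusted p between 0.00787 and 0.0146.

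**Figure D3:**
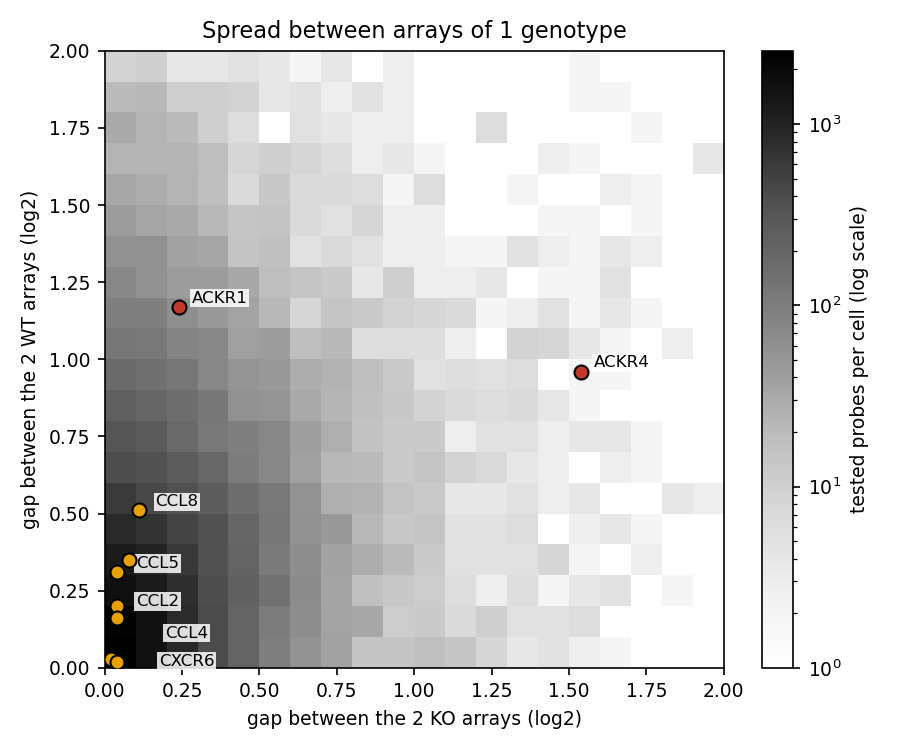
Gap between the 2 KO arrays (horizontal axis, log2) and between the 2 WT arrays (vertical axis, log2) for the 9 probes, over a grey count of all tested probes per cell on a log scale. ACKR4 lies at 1.54 and 0.96 and ACKR1 at 0.24 and 1.17, away from the other probes, whose KO gaps do not exceed 0.11.

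Of the 3 chemokines that ACKR4 clears, 1 was called higher in KO and 2 were not called. CCL19, which guides mature T cells and dendritic cells, was higher in KO, with 6.67 and 6.84 against 3.68 and 3.30 and a difference of 3.26 (SE 0.20, limma adjusted p = 0.00208). CCL21 had -0.77 and -1.96 in KO, against -2.24 and -4.74 in WT, with a difference of 2.12 that was not called (SE 0.95, limma adjusted p = 0.131). Without WT replicate 1 the difference of CCL21 was 3.38 and was called. CCL25, made by thymic epithelium to draw in progenitors, had 5.50 and 5.18 against 5.03 and 4.69 and was not called (0.48, SE 0.22, limma adjusted p = 0.136).

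Among the receptors that bind these chemokines, CCR1, CCR2 and CCR3 are described here, of which CCR2 was higher in KO. CCR2, the monocyte receptor of CCL2, read -0.68 and -0.31 against -2.17 and -2.92, a difference of 2.04 (SE 0.32, limma adjusted p = 0.00982) that was not called without KO replicate 2 (1.86, limma adjusted p = 0.054). CCR1, with 0.38 and 0.86 against 0.04 and -1.09, differed by 1.14 and was not called (SE 0.44, limma adjusted p = 0.0937). CCR1 was called with slide as a block, at limma adjusted p = 0.031, and without WT replicate 1 (1.71, limma adjusted p = 0.0097). CCR3 read -3.33 and -2.65 against -2.93 and -4.76, so that its groups overlapped (0.85, SE 0.67, limma adjusted p = 0.351). Without WT replicate 1 CCR3 differed by 1.77 and was called.

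Genes of the family that lie next to each other were compared by their order in RefSeq annotation of Sscrofa11.1. CCL8 and CCL2 flank CCL11, an eosinophil chemokine that was higher by 1.15 (SE 0.28, limma adjusted p = 0.0311). The call of CCL11 was lost with either KO array or WT replicate 1 left out. CCL4 and CCL5 bound a run of 7 genes, in which CCL3L1 was higher by 2.48 (SE 0.20, limma adjusted p = 0.00259) and CCL14 was not called (1.46, SE 0.44, limma adjusted p = 0.0512). CCL14 was called with slide as a block, at limma adjusted p = 0.0114, and without WT replicate 1 (1.94). The other 3 genes of that run had no tested named probe.

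CXCR6 lies among receptor genes with mixed differences, of which a stretch of 7 genes, up to 4 places from CXCR6, is described. CCR9, the receptor of CCL25 on thymocytes, was lower in KO by a log2 difference of -4.77 (SE 0.26, limma adjusted p = 0.00205), with -0.32 and -0.81 against 4.01 and 4.4. FYCO1, which lies between CCR9 and CXCR6 and is no chemokine gene, was named after its value was seen and was not called (0.32, SE 0.17, limma adjusted p = 0.194). XCR1, a receptor of conventional dendritic cells, was higher by 1.13 (SE 0.20, limma adjusted p = 0.0141) and lost its call with either KO array or WT replicate 2 left out. CCR9 and CXCR6 moved in opposite directions with 1 gene between them. ACKR1 and ACKR4 have no other listed chemokine gene beside them, and 359 protein-coding genes separate ACKR4 from CXCR6.

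**Figure D4:**
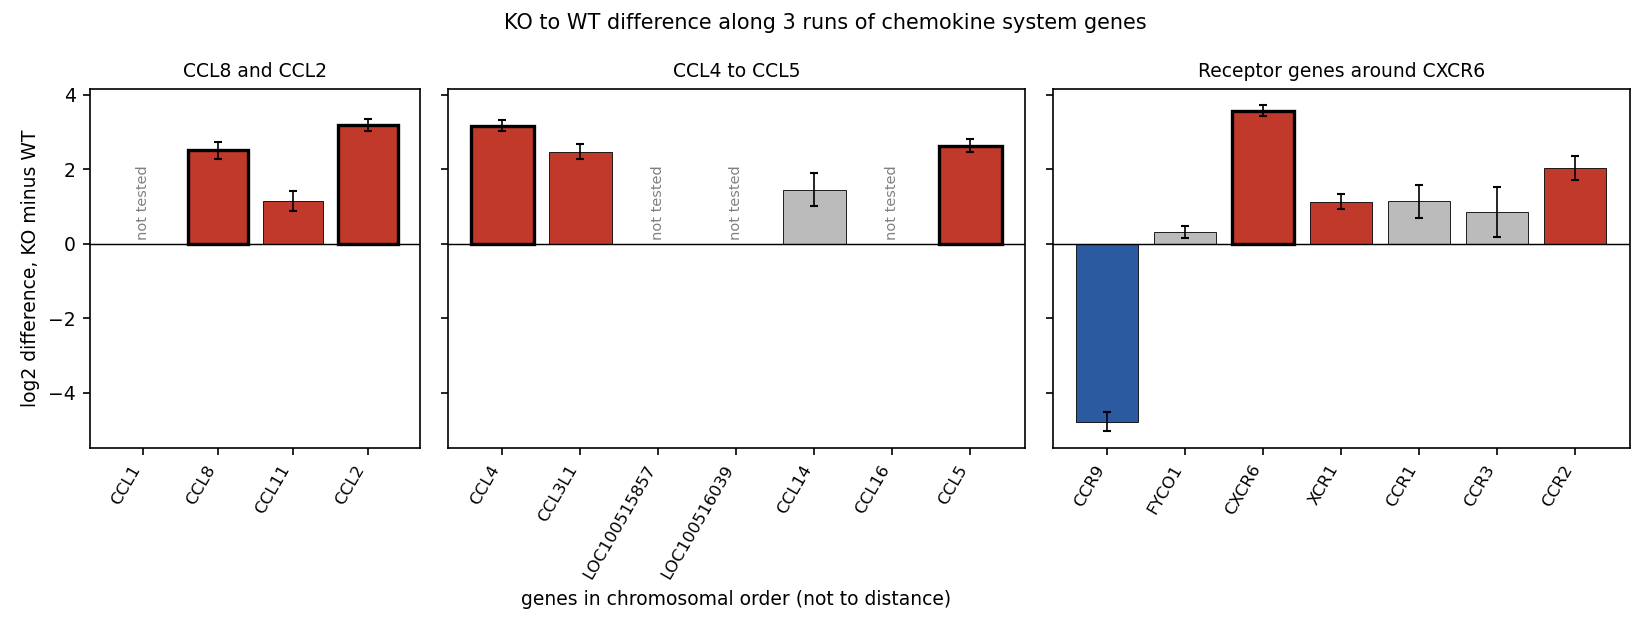
Difference between KO and WT (log2, vertical axis) of the genes in 3 runs that hold CCL8 and CCL2, CCL4 and CCL5, and CXCR6, in annotated order along the chromosome and without distances, with error bars for the SE of limma. Red is called higher, blue lower and grey not called, and a thick outline marks the 7 genes. CCR9 lies at -4.77 and CXCR6 at 3.57 with FYCO1 between them at 0.32.

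The remaining inflammatory chemokines, 30 genes of which 15 had a tested named probe, were described as a list. In it, 10 were called higher, 0 lower and 5 were not called, with a median difference of 1.46. With scaling to the median 8 were called higher, and with slide as a block 12. The interferon-induced T cell chemokines CXCL9 and CXCL10 had the largest rises of the list. CXCL9 read 5.30 and 5.44 in KO, against 0.83 and -0.02 in WT, a difference of 4.96 (SE 0.33, limma adjusted p = 0.00214), and CXCL10 was higher by 3.70 (SE 0.23, limma adjusted p = 0.00209). CCL20 was the one with the lowest difference, at -1.0 (SE 0.17, limma adjusted p = 0.0127), just short of 2-fold, and it was called lower without WT replicate 1 (-1.08, limma adjusted p = 0.0114). In the list of 8 homeostatic chemokines, of which 6 were tested, CCL19 and CXCL12, a chemokine of stromal cells, were called higher (3.26 and 1.56) and 4 were not called, and the call of CXCL12 was lost with either KO array left out. The median difference of the homeostatic list was 1.02.

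Among 19 other chemokine receptors, 11 were tested, with 2 called higher, 2 lower and 7 not called, and a median difference of 0.48. The 2 that rose were CCR2 and XCR1. The 2 that fell were CCR9 and CXCR4, the CXCL12 receptor of thymocytes and progenitors, which read -0.22 and -0.23 in KO against 3.34 and 3.65 in WT. The count of higher receptors was 0 without KO replicate 2, 1 without KO replicate 1 or WT replicate 2 and with scaling to the median, 5 without WT replicate 1 and 4 with slide as a block. The other atypical receptors ACKR2 (-0.03, SE 0.26, limma adjusted p = 0.937), ACKR3 (1.35, SE 0.44, limma adjusted p = 0.0631) and the related CCRL2 (0.26, SE 0.19, limma adjusted p = 0.301) were not called. ACKR3 was called with slide as a block, at limma adjusted p = 0.0116, and without WT replicate 1 (1.80). Over the 3 lists, 16 genes were called, and 10 without KO replicate 2.

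Cytokines and factors known to induce these chemokines were tested as a list of 11 genes, of which 10 had a tested probe and 5 were called higher, 3 with either KO array left out. IFNG, which encodes interferon gamma, was higher by 3.91 (SE 0.15, limma adjusted p = 0.00205). Its WT readings were above background on both arrays but dim, at scanner signals of 15.0 and 16.7, against 269 and 258 in KO. IRF1, an interferon-induced transcription factor, was higher by 1.70, IL1A by 2.31 and the NF-kB subunit NFKB1 by 1.27, whose call was lost with either KO array left out. TNF was called higher at its brightest probe (1.15, SE 0.31, limma adjusted p = 0.0386) and not at its other probe, and its call was lost with slide as a block (limma adjusted p = 0.0561) and with either KO array or WT replicate 1 left out. IL1B differed by 0.85, short of 2-fold, and IRF7 by 1.17 (limma adjusted p = 0.0747), and neither was called. Without WT replicate 1 IRF7 was called, at 1.73. RELA (-0.55), IRF3 (-0.44) and NFKBIA (0.31) were not called.

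Markers of the cell types that could carry or make these proteins also differed. Each list is given by its called genes and by its summed signal in multiples of the 75th percentile of the array. Bright probes weigh most in such a sum, as those of KRT8, FABP4 and DCN do in their lists. The sum is therefore no measure of the amount of a cell type. Of the 10 tested macrophage markers 10 were higher, from SIGLEC1 (1.82) to MRC1 (3.05), and their summed signal was 284 and 352 in KO against 71.6 and 55.7 in WT. Of 6 tested markers of NK and cytotoxic cells 5 were higher, with the summed signal 20.2 and 19.5 against 9.22 and 11. The NK receptor gene NCR1 of the same list was too dim to be tested. It read -6.22 and -6.17 in KO, above background on 0 arrays, and -5.85 and -5.43 in WT, above background on 1. GZMA had the largest difference of these (4.46, above background on 1 of 2 WT arrays) and GZMB, at -0.76, was not called except as lower without WT replicate 1. The count of cytotoxic markers was 3 with either KO array left out and with scaling to the median. FASLG, counted among those higher, was below background on both WT arrays and entered the test only through its KO arrays. As a bound it was at least 9.06-fold higher in KO. Its limma adjusted p = 0.00205 belongs to the fitted difference of 3.80, which rests on WT readings below background.

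The thymocyte markers moved the other way. All 11 tested were lower in KO, from CD2 (-1.47) to RAG2 (-7.76, above background on 1 of 2 KO arrays), and their summed signal was 28.9 and 28.1 in KO against 155 and 221 in WT. Both tested B cell markers, CD79A (-3.47) and MS4A1 (-3.45, above background on 1 of 2 KO arrays), were lower too, with a summed signal of 0.105 and 0.0883 against 1.13 and 1.0. The labelled tissue was checked against 5 tested markers of thymic epithelium, of which 3 were higher, from EPCAM (0.37, not called) to KRT8 (2.37), with a summed signal of 215 and 206 against 63.9 and 42.5. The part of these cell types in the rise of the 7 genes was not tested.

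For ACKR1, endothelium and red cells are the known carriers. Of 8 tested endothelial markers 7 were higher, from ENG (0.46, not called) to SELP (2.69), and the summed signal was 42.5 and 47.8 in KO against 12.4 and 8.62 in WT. The calls of PECAM1 and CLDN5 were lost with either KO array left out. All 3 tested erythroid markers were not called, from KLF1 (0.12) to HBE1 (1.07), and their summed signal was 0.22 and 0.348 against 0.174 and 0.189. HBE1 was called without WT replicate 2, at 1.97, and EPOR without WT replicate 1, at 1.13. Like ACKR1, 7 of the 8 endothelial markers had the array order KO replicate 2, KO replicate 1, WT replicate 1, WT replicate 2 from high to low, which was looked for after the values were seen and held for 13.7% of all tested probes and 37.4% of those called higher. The same order was found at 8 of 10 macrophage, 4 of 5 fibroblast and 5 of 7 fat cell markers, so that it was shared by several lists. Of the 7 genes 4 had it, CCL2 and CCL4 besides ACKR1 and ACKR4, as did 7 of the 15 other inflammatory chemokines tested. It was found at 1 of 3 erythroid and 2 of 6 NK and cytotoxic markers, and at 0 of 11 thymocyte, 0 of 5 thymic epithelium and 0 of 2 B cell markers. The part of endothelium in the ACKR1 value was not tested.

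For ACKR4, whose KO arrays were far apart, the spread of fat and fibroblast markers between the arrays is given beside it. KO arrays at least 2-fold apart were found at 2.34% of all tested probes, at 6 of 7 fat cell markers and at 0 of 5 fibroblast markers. The fibroblast marker THY1 came close, at 1.98-fold. Such a gap was also found at 3 of 11 thymocyte markers, with KO replicate 1 the higher, and at 1 of 3 erythroid markers. These were dim in KO, with scanner signals from 100 and 30.7 (RAG1) to 12.6 and 3.14 (RAG2), and 23.6 and 79.3 for KLF1. Among the fat cell markers PLIN1 was dim as well (71.2 and 183). A 2-fold gap was found at 0 of 10 macrophage, 0 of 8 endothelial and 0 of 5 thymic epithelium markers. KO replicate 2 was above KO replicate 1 at 50.2% of all tested probes. That held at 7 of 7 fat cell, 5 of 5 fibroblast and 8 of 8 endothelial markers, and at 10 of 10 macrophage and 3 of 3 erythroid markers. The count was 2 of 5 for thymic epithelium, a known site of ACKR4, and 3 of 6 for NK and cytotoxic cells. For thymocyte markers it was 5 of 11 and for B cell markers 0 of 2. The summed signal of the fat cell markers was 42.1 and 121 in KO against 18.5 and 10.1 in WT, and 4 of the 7 were called higher, from LEP (0.39, not called) to PLIN1 (3.99, above background on 1 of 2 WT arrays, and 2.65 to 5.32 with 1 array left out). Without KO replicate 2 none of the 7 was called higher, without WT replicate 2 only 1. Fibroblast markers had a summed signal of 132 and 194 against 63.8 and 28.2, with 4 of 5 higher, from THY1 (0.80, not called) to POSTN (4.54), and 1 of 5 with either KO array left out. The part of fat or fibroblasts in the ACKR4 value was not tested.

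**Figure D5:**
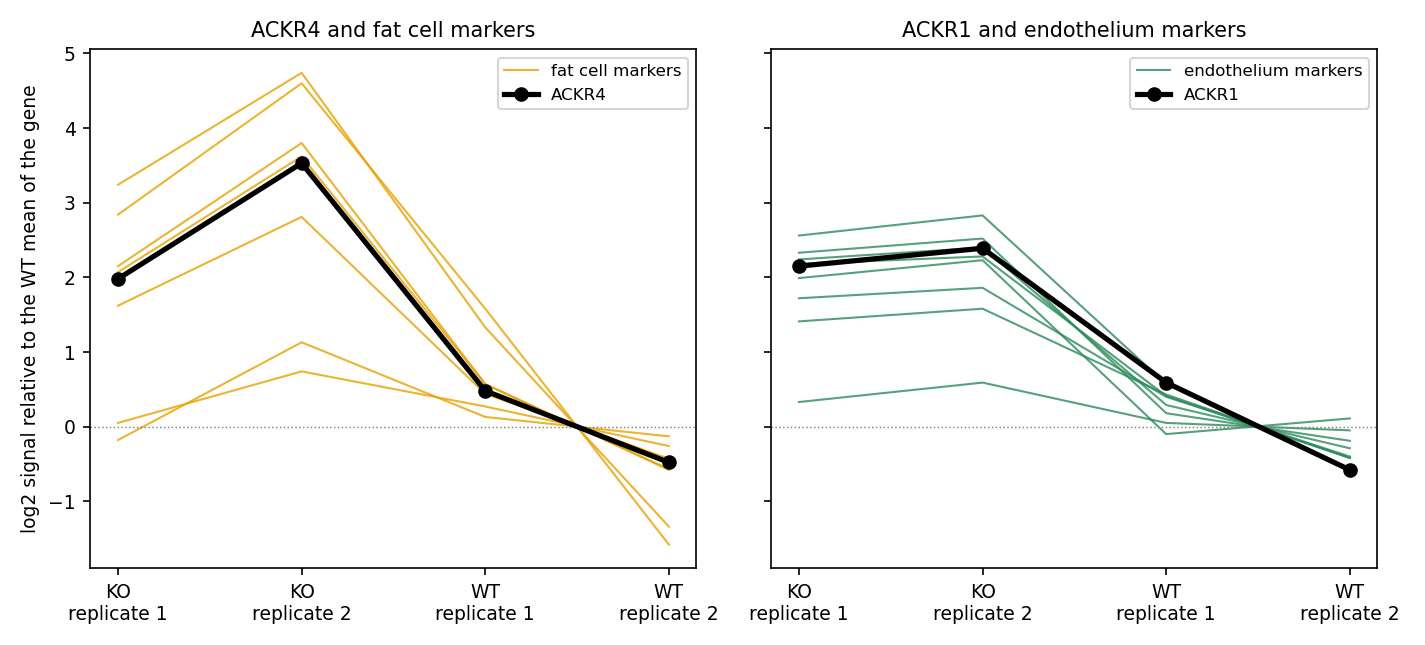
Normalized log2 signal less the WT mean of each gene (vertical axis) on the 4 arrays, for ACKR4 with the 7 fat cell markers (left) and ACKR1 with the 8 endothelial markers (right). Lines join the values of 1 gene and imply no order of the arrays. All 7 fat cell markers and ACKR4 lie higher on KO replicate 2 than on KO replicate 1.

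The named gene with the most similar profile was sought for each of the 7, as the smallest Euclidean distance over the 4 arrays, after the WT mean of each gene was subtracted, among 2507 genes well above background on all arrays. CCL2 was nearest to CCL19 (distance 0.18), CCL4 to SAA3, an acute phase protein (0.24), CCL5 to SRPK3, a protein kinase (0.12), and CCL8 to NPPC, a natriuretic peptide (0.12). CXCR6 was nearest to the growth factor BMP7 (0.14), with differences of 3.57 and 3.60. ACKR1 was nearest to CASP1, an inflammatory caspase (0.14), and ACKR4 to the fat cell fatty acid carrier FABP4 (0.17). FABP4 read 5.08 and 6.63 in KO, against 3.58 and 2.44 in WT, with KO replicate 2 above KO replicate 1 as at ACKR4.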

How the data were processed

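Thymus RNA of KO and WT pigs was hybridised to porcine 4x44K arrays, 2 per genotype, with groups and replicate numbers taken from the labels. Where the methods mention Cy-3 and Cy-5, the labels name Cy3 alone and the files hold 1 channel, so genotypes were compared between arrays. The authors deposited intensity values per spot from Agilent Feature Extraction 11.0.1.1, background-subtracted on a linear scale and not normalized between arrays. They also deposited log2 values of 27974 probes, which served as an alternative. These correlated with the log2 scanner signal at 0.99981 to 0.99995 by array, and how they were normalized was not tested.

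Here control and outlier spots were left out, the log2 signal less the 75th percentile of each array was taken, and spots of a probe were averaged. The test took in each probe that both arrays of KO, or both of WT, had well above background, and used lmFit and eBayes of limma 3.58.1 in R 4.3.3, and the procedure was tested on simulated data. Plots were made with Python 3.11.15 and matplotlib 3.10.9. Of 43603 probes 7111 carried a RefSeq accession and 6686 were named through the RefSeq table of Sscrofa11.1, which served for names and gene order. A gene other than the 7 stands for its brightest named probe, and a gene without one may still be on the array. Where a genotype was below background on both arrays, the fold is a bound against the dimmest probe well above background.

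Besides the 7 genes and IL2RG, the text names their ligands and receptors, the largest rises and falls called in each family list, all inducers, the extremes of each marker list and the nearest profile of each gene. Neighbouring genes are named by position. The 7 genes and the lists were chosen with earlier results of these data known. Alternatives were other normalizations and filters, the methods' t-test, a block for the slide or for the replicate number, an intensity trend, a 4-fold threshold and each array left out. The normexp correction had been planned on mean spot brightness and was run on the median, which the files give. The number of arrays limits the precision. Some genes of the lists are not reported here, and the list values were computed without them.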

Additional observations from a re-analysis of the deposited data

How the results depend on the processing

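All 7 genes were higher in KO under every alternative run, and the range over alternatives was 2.93 to 3.31 for CCL2, 2.83 to 3.18 for CCL4, 2.38 to 2.79 for CCL5, 2.21 to 2.77 for CCL8, 3.24 to 3.60 for CXCR6, 1.68 to 2.86 for ACKR1 and 1.98 to 3.53 for ACKR4. All 7 genes and 9 probes stayed called under quantile normalization, scaling to the median, normexp, the log2 values deposited by the authors, both filters on dim probes, an intensity trend and a 4-fold threshold. The methods' t-test called 0 of the 9 probes by Bonferroni, 4 by Benjamini-Hochberg (3 of the 7 genes, CCL2, CCL4 and CXCR6) and 7 (5 genes) unadjusted. With each array left out, 7 to 9 probes and 5 to 7 genes were called.

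Of the 16 other chemokine and receptor genes called, 10 passed at 4-fold, and the methods' t-test called 0 with Bonferroni, 1 with Benjamini-Hochberg and 14 unadjusted. The range with 1 array left out was 10 to 22. Over all probes, 10882 were called, against 6610 with normexp, 4880 at 4-fold, and 0, 1489 and 8610 with the methods' t-test by Bonferroni, by Benjamini-Hochberg and unadjusted, and 6090 to 12713 with 1 array left out. Of the probes called, the share higher in KO was 61.7%, 47.9% with scaling to the median, 73.1% at 4-fold and 48.0% with the methods' t-test and Benjamini-Hochberg. The IL2RG difference of -3.41 kept its direction, ranged from -3.74 to -3.09 with 1 array left out, and had adjusted p = 1.0 and 0.0615 in the methods' t-test with either adjustment.

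With the replicate number as a replicate block, 9 member probes, 17 other chemokine and receptor genes and 10658 probes were called. The deviations of same-numbered arrays from their genotype means correlated at -0.29 over probes, and those of arrays on the same slide at 0.29. With 2 arrays per genotype these values mirror each other by construction. They cannot decide whether the numbers pair the samples. The crossed pairing of the numbers was considered after seeing the data. It is the same fit as the planned one with slide as a block, which called 9, 20 and 11136. The cause of these shifts was not tested.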
